A study of Mus musculus with 18 samples.

Results

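The 81 genes described here encode chromatin modifiers and remodelers. They were taken from a table of 10965 genes as the protein-coding entries whose symbols belong to the Kdm, Kmt, Hdac, Sirt, Cbx, Chd, Smarc, Ezh, Setd, Prmt, Arid and Ino80 families, so by name and not by any measured value. RefSeq lists 110 mouse protein-coding genes with such names, and 29 of them, among them Hdac2, Kdm6a, Setd2, Setdb1, Smarcb1 and Cbx3, have no row in the table used here. The authors had kept only genes with at least 5 TPM (a transcript level per gene length, scaled to a common total per library) in at least 3 libraries and had removed the 20% least variable genes, so all 81 had passed a filter on low and on steady values.

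Histone modifiers add or remove methyl and acetyl groups on histone tails, and readers such as the chromobox proteins bind the methylated tails. Remodelers such as BAF (SWI/SNF), ISWI, CHD and INO80 complexes use ATP to move or eject nucleosomes. Embryonic stem cells (ESCs) are known for a BAF complex built on Smarca4 and Smarcc1 and for the Polycomb chromobox protein Cbx7, and differentiating and neural cells for complexes that also take in Smarca2, Smarcc2, Cbx2 or Cbx8.

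RNA of mouse ESCs was sequenced on 3 days of neural differentiation (ND), in Ctrl cells (Zeb2 fl/fl) and Zeb2 KO cells (Zeb2 -/-), both of the CD1 strain, with 3 libraries in each of 6 groups. Zeb2 encodes a DNA-binding zinc finger transcription factor. All cells were kept in 2i + LIF at d0 and then grown as embryoid bodies (EBs) in medium with serum. At d4 the medium was changed to N2B27 with 500 nM retinoic acid, and EBs were taken at d4 and d6. The KO lines had been made from ESCs of the floxed genotype with a transfected Cre plasmid, and which lines were sequenced is not given in the sources used here. The labels number the libraries of a group 1 to 3.

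Libraries held 9622622 to 15617675 reads on genes. Zeb2 itself was at 7.53 to 7.81 TPM in Ctrl and 0.594 to 0.733 TPM in KO at d6, a log2 fold change of -2.37 ± 0.12 (SE, adjusted p = 6.98e-11), and its KO and Ctrl libraries did not overlap on any day. The labels call the d6 cells neural progenitors. Of 14 listed neural genes in the table, 12 were lower and 1 higher in KO at d6, and their summed level was 173 to 184 TPM in KO against 603 to 683 TPM in Ctrl. The defining marker Pax6 was at 0.825 ± 0.109 TPM (SD, n = 3) in KO EBs against 34.6 ± 0.697 TPM in Ctrl EBs. Of 12 listed ESC and epiblast genes, 8 were higher and 1 lower at d6, with a summed level of 2593 to 2822 TPM in KO and 1140.0 to 1260.0 TPM in Ctrl. Pou5f1 stood at 652 ± 81.7 TPM in KO and 101 ± 11.3 TPM in Ctrl. All 6 listed endoderm genes in the table were lower at d6, with sums of 24.6 to 41.4 TPM against 137 to 235 TPM. Of 6 listed trophectoderm genes 4 were lower, with sums of 1083 to 2125 TPM against 1216 to 1862 TPM, and of 3 mesoderm genes 1 was lower and 1 higher, with sums of 26.7 to 33.5 TPM against 163 to 220.2 TPM. The marker lists were chosen with earlier results of these data known. They hold genes that the study had reported as changed, such as Fgf5, Otx2, Pou3f1, Zfp521 and Neurog1. The part of these markers in the results on chromatin genes was not tested. In EBs, fewer cells of a type and less RNA per cell cannot be told apart.

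Of the chromatin genes called between genotypes as deposited, more were lower than higher in Zeb2 KO cells, as they were among all genes, and this split moved with the scaling. A gene was called where limma's moderated test on log2(TPM + 1), with Benjamini-Hochberg adjustment over all 10965 genes, gave an adjusted p under 0.01. At d0, 8 members (9.88%) were higher and 16 (19.8%) lower in KO, against 10.6% and 16.4% of all genes. At d4, 7 (8.64%) were higher and 35 (43.2%) lower, against 12.7% and 32.7%. At d6, 12 (14.8%) were higher and 36 (44.4%) lower, against 17.9% and 34.3%. The median log2 fold change of the members was -0.08, -0.29 and -0.29 on the successive days, and that of all genes was -0.07, -0.16 and -0.14. The share of lower calls among members at d0 was near that of all genes.

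TPM divides each library by its own total, so the shift of all genes matters. When libraries were rescaled to the median ratio over genes, the median over all genes became -0.03, 0.00 and 0.01 and that of the members -0.03, -0.13 and -0.13. On that scale 9 members were higher and 12 lower at d0, against 12.4% and 14.1% of all genes. At d4, 12 were higher and 19 lower, where 21.0% and 21.3% of all genes were called, and at d6, 20 were higher and 25 lower, where the shares were 25.6% and 25.6%. The members called higher thus made up 16.7% of the calls at d4 as deposited and 38.7% after rescaling, and 25.0% and 44.4% at d6. Calls in the same direction under both scalings numbered 20 members at d0, 26 at d4 and 37 at d6. Calls lost after rescaling were those on Arid1a, Chd4, Ino80d and Prmt1 at d0. At d4 they were those on Arid1a, Arid5b, Chd2, Chd4, Hdac5, Hdac6, Hdac7, Hdac9, Ino80b, Kdm4b, Kdm5a, Kmt2b, Setd1b, Setd5, Smarca4 and Smarce1, and at d6 those on Arid1a, Arid5b, Chd4, Hdac3, Hdac6, Hdac9, Ino80d, Prmt2, Sirt6, Smarcc1 and Smarcd1. When the median of each chromosome was taken out of each library instead, 12 members were higher and 17 lower at d4, and 22 were higher and 19 lower at d6. The shares of all genes called in that setting are not given here, so these counts are not set against any. At least 1 library decided the calls on Arid1a, Arid2, Chd4, Chd7, Chd9, Hdac5, Ino80d, Prmt1, Setd7 and Sirt2 at d0, which were lost without it. The same held for Arid1a, Arid5b, Chd2, Chd9, Hdac5, Hdac6, Hdac7, Hdac9, Kmt2b, Setd1b, Sirt1 and Smarca4 at d4 and for Arid5b, Cbx7, Chd4, Hdac9, Ino80e, Kdm5b, Prmt2, Prmt7, Sirt3 and Sirt6 at d6.

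Large changes were fewer. At an unadjusted p under 0.01 with more than a log2 fold change of 1 in either direction, 1 member passed at d0 (4.60% of all genes), 5 at d4 (9.83%) and 14 at d6, 2 of them higher (15.7% of all genes in both directions). The 3 KO and 3 Ctrl libraries did not overlap for 45 members at d0, 64 at d4 and 60 at d6, which are 55.6%, 79.0% and 74.1% of members against 51.5%, 65.7% and 63.7% of all genes. At both d4 and d6, 28 members (13 of which lost a call after rescaling) were lower, where 24.4% of all genes were, and 5 were higher (Cbx1, Chd5, Chd9, Prmt3 and Prmt7), where 9.25% of all genes were. Chd9 and Prmt7 were higher on every day (1.10% of all genes). On every day 9 members (Arid1a, Cbx2, Chd4, Chd7, Hdac6, Hdac9, Ino80d, Prmt8 and Sirt2) were lower, against 5.04% of all genes, and 5 of the 9 (Arid1a, Chd4, Hdac6, Hdac9 and Ino80d) lost a call on at least 1 day after rescaling. Another 19 were called on no day (28.9% of all genes), among them Hdac1, Ezh1, Kmt2a, Kmt2c, Kmt2d, Setd1a, Ino80 and Kdm5c, of which Kmt2c was called at d6 without KO d6 replicate 1 and Ezh1 after rescaling.

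**Figure D1:**
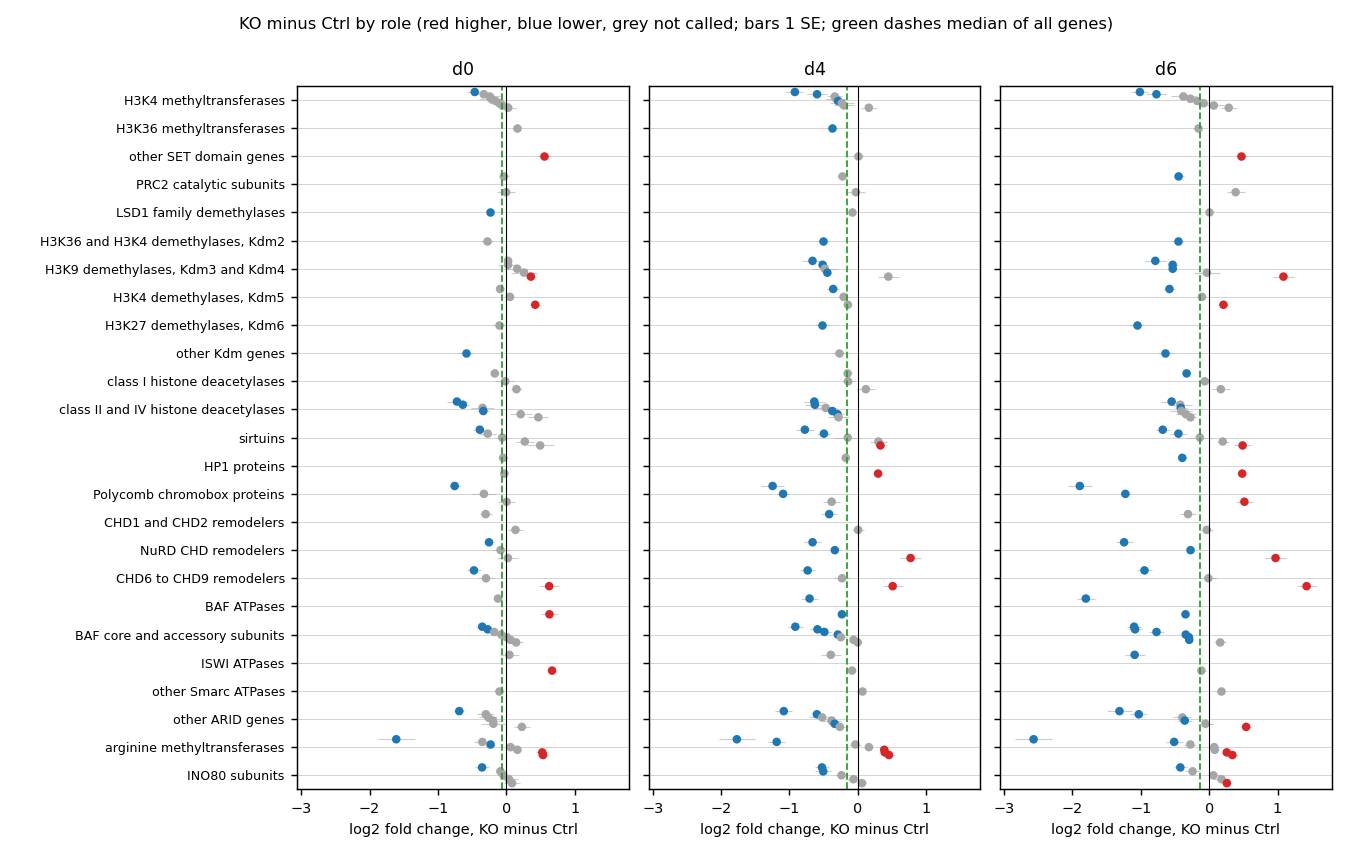
Log2 fold change of each member, KO minus Ctrl, at d0, d4 and d6 (1 panel a day, horizontal axis), by role (vertical axis); points are red where called higher, blue where called lower and grey otherwise, bars are 1 SE, and the green dashed line is the median of all genes. Blue points outnumber red ones on each day (16 and 8 at d0, 35 and 7 at d4, 36 and 12 at d6), and BAF subunits at d6 lie mostly left of the line.

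The promoters of members that moved most at d6 are shown because the study asks whether genes that differ without Zeb2 carry the factor's binding motif, a pair of E-box-like sites. The windows are RefSeq's (assembly GRCm38.p6), 300 bases from 250 before to 50 after a transcription start, and capitals mark CACCT or CACCTG on either strand (AGGTG or CAGGTG on the printed strand). Shown are the 2 members with the largest log2 fold change in each direction that have a window with CACCTG. RefSeq gives Kdm4c, Arid3b and Prmt8 2 windows each, of which the one with CACCTG is shown, and Arid3c 1 window. The window of Kdm4c, higher in KO, is at chr4:74251629-74251928 on the plus strand, and that of Arid3b, also higher, at chr9:57836435-57836734 on the minus strand. The window of Prmt8, lower in KO, is at chr6:127769106-127769405 on the minus strand, and that of Arid3c, also lower, at chr4:41731093-41731392 on the minus strand.
Kdm4c: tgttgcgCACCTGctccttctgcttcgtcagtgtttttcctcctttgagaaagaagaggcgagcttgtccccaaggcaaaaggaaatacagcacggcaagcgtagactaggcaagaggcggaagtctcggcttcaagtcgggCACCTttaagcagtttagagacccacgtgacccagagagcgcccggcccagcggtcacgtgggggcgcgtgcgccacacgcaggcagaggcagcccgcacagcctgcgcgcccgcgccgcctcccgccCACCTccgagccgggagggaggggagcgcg
Arid3b: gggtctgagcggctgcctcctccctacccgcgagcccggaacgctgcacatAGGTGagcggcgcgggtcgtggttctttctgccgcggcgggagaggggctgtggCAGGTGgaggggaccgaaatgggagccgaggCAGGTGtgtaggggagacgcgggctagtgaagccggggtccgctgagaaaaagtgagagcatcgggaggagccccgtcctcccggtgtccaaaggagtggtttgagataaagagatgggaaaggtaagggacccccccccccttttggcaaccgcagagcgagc
Prmt8: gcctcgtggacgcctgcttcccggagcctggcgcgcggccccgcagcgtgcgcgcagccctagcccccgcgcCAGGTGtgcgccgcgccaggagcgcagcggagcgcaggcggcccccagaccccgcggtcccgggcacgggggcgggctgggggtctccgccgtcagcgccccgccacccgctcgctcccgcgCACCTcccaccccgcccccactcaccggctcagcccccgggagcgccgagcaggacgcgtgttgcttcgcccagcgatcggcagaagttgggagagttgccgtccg
Arid3c: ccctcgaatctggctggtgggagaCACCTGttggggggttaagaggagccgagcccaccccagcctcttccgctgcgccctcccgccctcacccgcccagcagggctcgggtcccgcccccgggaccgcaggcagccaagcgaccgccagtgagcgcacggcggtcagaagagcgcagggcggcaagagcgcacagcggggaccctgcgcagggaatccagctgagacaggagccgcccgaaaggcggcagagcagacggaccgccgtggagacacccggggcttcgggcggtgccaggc

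The Kdm4c window shown held 1 CACCTG and 3 CACCT in all (a CACCTG counts as a CACCT too), the Arid3b window 2 and 3, the Prmt8 window 1 and 2 and the Arid3c window 1 and 1. Of these 4 windows only that of Arid3b held a pair of CACCT sites within 45 bases of each other, and both were CACCTG. Such letters are common: 20.2% of all 32851 windows held CACCTG, 51.9% held CACCT and 8.02% held a pair. Of the 76 windows that matched 58 members, 18.4% held CACCTG, 47.4% CACCT and 9.21% a pair. Windows of members higher at d6 (18 windows of 12 genes) held CACCTG in 22.2%, those of members lower (28 windows of 22 genes) in 25.0% and those of members not called (30 windows of 24 genes) in 10.0%. Pairs stood in 11.1%, 7.14% and 10.0% of these windows. A match describes the letters and is not a site of binding, and no test was made. The study searched a wider region around the start for CACCTG and CACCT at most 45 bases apart. It reported these motifs as enriched among genes upregulated in KO, and an opposite trend for the downregulated ones. The shares here come from 300-base windows and any pair of CACCT, so they are not set against that result.

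Among the BAF ATPases, Smarca2 (chr19:26605050-26778322 on GRCm38, GENCODE M21) gave the most distinct course. Its level in Ctrl was 2.04, 1.64 and 1.66 TPM at d0, 3.03, 2.61 and 3.74 at d4 and 8.63, 7.50 and 8.31 at d6. In KO it was 3.16, 3.41 and 3.30 TPM at d0, 1.46, 1.71 and 1.39 at d4 and 1.52, 1.80 and 1.54 at d6. All KO libraries were above all Ctrl libraries at d0 and below them at d4 and d6, with log2 fold changes of 0.63 ± 0.13 (SE, adjusted p = 0.000943), -0.71 ± 0.13 (SE, adjusted p = 0.00021) and -1.80 ± 0.13 (SE, adjusted p = 4.94e-09). From d0 to d6 it rose by 1.72 on the log2 scale in Ctrl and fell by 0.71 in KO. Only Ctrl d6 libraries of Smarca2 reached the 5 TPM of the authors' filter. Its d6 difference and its ratio to Smarca4 at d6 are therefore not independent of that filter. Smarca4, the ATPase of the ESC complex, was far more abundant, at 279.5, 297 and 289 TPM in Ctrl and 225, 223 and 231 TPM in KO at d6. Under quantile normalization the d4 difference of Smarca2 was -0.33 and not called. The log2 fold change of Smarca4 was -0.23 at d4 and -0.35 at d6, both called, and after rescaling -0.06 (not called) and -0.18 (called). With chromosome medians taken out, these differences of Smarca4 were 0.02 and -0.08, neither called.

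Of the 7 BAF core and accessory subunits in the table, none was higher on any day, and 2, 4 and 6 were lower on d0, d4 and d6, where 16.4%, 32.7% and 34.3% of all genes were. After rescaling, 3 of the 6 calls at d6 (Arid1a, Smarcc1 and Smarcd1) were lost, and with chromosome medians taken out Smarcc1 was called higher at d4 (0.19). Smarcc2 (BAF170, chr10:128459248-128490482), a scaffold subunit, rose in Ctrl from 30.1, 28.0 and 30.7 TPM at d0 to 75.4, 96.8 and 94.9 at d4 and 139.5, 133 and 123 at d6. In KO it was 31.3, 34.9 and 32.3 TPM at d0, 41.8, 48.2 and 49.9 at d4 and 66.3, 66.2 and 51.6 at d6. Groups did not overlap, with KO slightly above Ctrl at d0 (0.14, not called) and below it at d4 (-0.91 ± 0.11 SE, adjusted p = 3.46e-06) and d6 (-1.10 ± 0.11 SE, adjusted p = 2.47e-07). Smarce1 (BAF57) gave the same order of groups at d6, 41.6 ± 2.69 TPM in Ctrl and 19.1 ± 0.196 TPM in KO (SD, n = 3), with -1.08 ± 0.10 (SE, adjusted p = 1.59e-07). The table also holds a pseudogene named for Smarce1, so reads could have been split between them. Arid1b, which takes the place of Arid1a in some BAF complexes, was lower at d4 (-0.59) and d6 (-0.77). Arid1a was lower by less on all days (-0.27, -0.29 and -0.34), and no day's difference was called after rescaling. Smarcc1 (BAF155) was lower at d6 alone (-0.29), a call lost after rescaling (-0.13).

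The balance of the paralog pairs was compared as a log2 ratio of TPM within each library, which no scaling of the library can move. Smarca4 over Smarca2 was 5.02, 5.31 and 5.12 in the Ctrl libraries at d6 and 7.20, 6.96 and 7.23 in the KO libraries. The corresponding mean ratios were 116, 89.0 and 35.4 TPM per TPM in Ctrl from d0 to d6, and 57.1, 155 and 140.2 in KO. Thus the ratio went down with time in Ctrl and was above its d0 value at d4 and d6 in KO, and the genotypes did not overlap on any day. Smarcc1 over Smarcc2 went from 4.23 at d0 to 1.08 at d6 in Ctrl and from 3.37 to 1.91 in KO, again with no overlap on any day. Arid1a over Arid1b, as a mean log2 ratio, was 2.29 at d0 and 1.69 at d6 in Ctrl and 2.01 and 2.14 in KO. In all 3 BAF pairs the second gene of the ratio changed more upwards than the first in Ctrl from d0 to d6, and at d6 the ratio was higher in KO than in Ctrl.

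**Figure D2:**
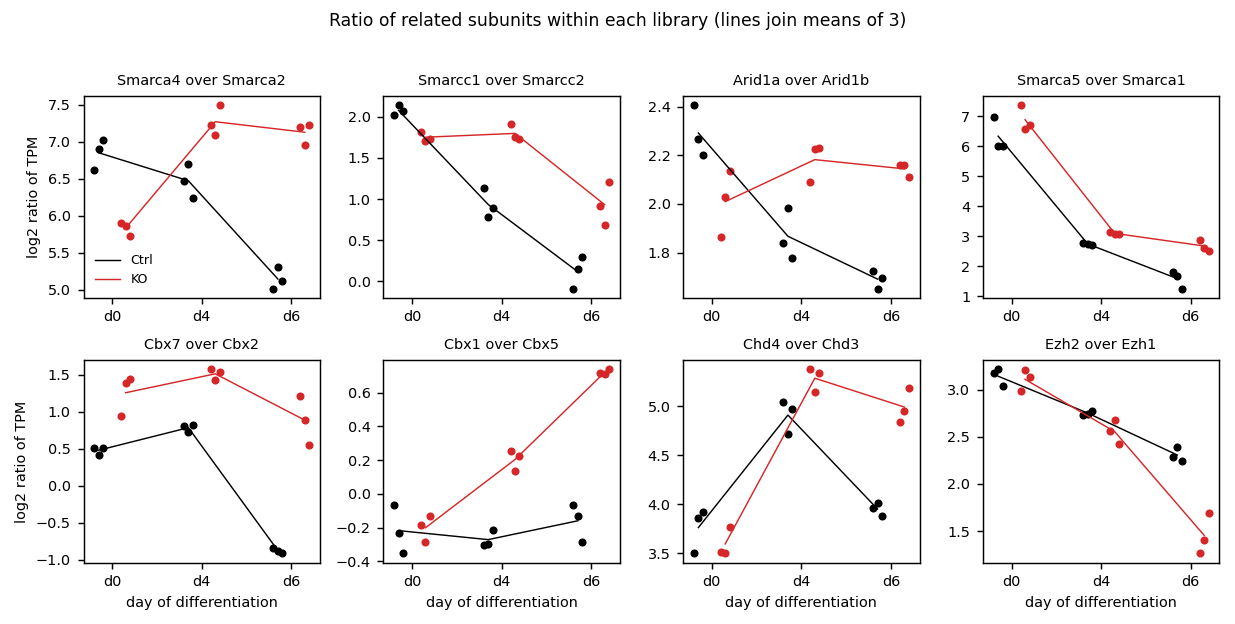
Log2 ratio of TPM of paralogs (vertical axis) in each library by day and genotype (horizontal axis), 1 panel for each of 8 pairs, with points for libraries (n = 3 a group). Smarca4 over Smarca2 ends at a mean of 5.15 in Ctrl and 7.13 in KO at d6, and Cbx7 over Cbx2 at -0.88 and 0.88.

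The ISWI ATPases slide nucleosomes into regular arrays. Smarca5 (Snf2h) was at 46.2, 42.1 and 42.0 TPM in Ctrl and 70.4, 66.8 and 71.6 TPM in KO at d0, where it was the member with the largest difference upwards (0.67 ± 0.06 SE, adjusted p = 5.32e-07). At d4 it was at 66.9 to 71.0 TPM in Ctrl and 59.7 to 69.5 TPM in KO, and at d6 at 43.7 to 44.9 and 40.3 to 41.8 TPM, with neither day called. Smarca1 (Snf2l), the paralog linked to neural differentiation, was under 1 TPM in all 6 d0 libraries. It had risen to 10.5, 10.0 and 10.3 TPM at d4 and 12.7, 14 and 18.4 at d6 in Ctrl, and to 6.80, 8.27 and 7.74 and 5.70, 6.58 and 7.15 TPM in KO. KO libraries lay below Ctrl libraries at d6 without overlap (-1.09 ± 0.14 SE, adjusted p = 6.81e-06), and the d4 difference was not called (-0.40).

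Chd3, Chd4 and Chd5 are alternative remodeling ATPases of the NuRD complex, which also carries histone deacetylases. In Ctrl, Chd3 was at 30.6, 24.4 and 25.8 TPM at d0, 15.6, 18.4 and 17.3 at d4 and 27.8, 29.5 and 32.7 at d6. In KO, Chd3 was at 26.2, 27.9 and 21.9 TPM at d0, 8.86, 11.8 and 10.8 at d4 and 13.4, 12.2 and 10.7 at d6. The groups separated at d4 (-0.66 ± 0.12 SE, adjusted p = 0.000321) and d6 (-1.24 ± 0.12 SE, adjusted p = 3.29e-07) but not at d0. Its antisense gene Chd3os was likewise at 17.1 to 18.9 TPM in Ctrl and 5.56 to 5.87 TPM in KO at d6. Whether the counting used strand is not given in the sources used here, so reads of this pair cannot be told apart. Chd5, best known from neurons, went the other way, from 2.96, 2.66 and 2.43 TPM in Ctrl to 4.38, 5.67 and 5.91 in KO at d4 and from 2.23, 2.53 and 3.03 to 7.23, 6.00 and 5.0 at d6, without overlap. The differences were 0.77 ± 0.15 (SE, adjusted p = 0.000518) and 0.97 ± 0.15 (SE, adjusted p = 4.62e-05), at low levels throughout. On these days only KO libraries of Chd5 reached the 5 TPM of the authors' filter. Chd4, the most abundant of these at 464 ± 26.9 TPM in Ctrl and 384 ± 5.42 TPM in KO at d6 (SD, n = 3), was called lower on all days (-0.25, -0.34 and -0.27). No call on Chd4 held after rescaling. Taking out each chromosome's median turned its d4 and d6 differences to 0.09 and 0.10.

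Chd7, the CHD remodeler mutated in CHARGE syndrome, and Chd9, a relative, differed in opposite directions. Chd7 rose in both genotypes but was lower in KO, at 34.1 ± 3.29 TPM against 66.6 ± 3.76 TPM at d6 (SD, n = 3), with log2 fold changes of -0.47, -0.73 and -0.95, all called. Chd9 (chr8:90828352-91054516) was at 22.3, 25.2 and 26.4 TPM at d0, 83.8, 72.9 and 86.5 at d4 and 26.2, 26.4 and 31.2 at d6 in Ctrl. In KO it was at 37.4, 43.4 and 35.1 TPM at d0, 100.1, 129 and 119 at d4 and 102, 65.1 and 67.5 at d6. The d4 peak was thus followed by a fall of 1.5 on the log2 scale in Ctrl and of 0.59 in KO, and the d6 groups lay apart (1.42 ± 0.15 SE, adjusted p = 4.45e-07). The smaller differences at d0 (0.63 ± 0.15 SE, adjusted p = 0.00306) and d4 (0.51 ± 0.15 SE, adjusted p = 0.00742) did not keep their calls when single libraries were left out. The d0 call was lost without Ctrl d0 replicate 1 (0.56, adjusted p = 0.0165) or KO d0 replicate 2 (0.54, adjusted p = 0.0183). The d4 call was lost without Ctrl d4 replicate 1, 2 or 3 or without KO d4 replicate 2 or 3, where the adjusted p reached 0.0377.

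The INO80 complex exchanges and slides nucleosomes at promoters and damaged DNA. Of its 5 listed subunits, Ino80d was lower on all 3 days (-0.36, -0.52 and -0.42) and Ino80b at d4 (-0.51), while the d0 and d6 calls on Ino80d and the call on Ino80b were lost after rescaling and Ino80 and Ino80c were not called on any day. Ino80e was among the members that fell most in Ctrl, from 63.1, 56.2 and 61.3 TPM at d0 to 26.0, 25.5 and 27.2 at d4 and 24.2, 27.4 and 24.6 at d6. KO libraries were at 56.8, 58.1 and 54.8 TPM at d0, 27.5, 27.7 and 27.1 at d4 and 29.4, 30.4 and 31.7 at d6. The decrease was shared by both genotypes, and at d6 KO lay above Ctrl without overlap (0.26 ± 0.06 SE, adjusted p = 0.0023). That call was lost without Ctrl d6 replicate 1 or 3 or KO d6 replicate 3 (adjusted p of 0.0112 to 0.0136), and with only the libraries compared (adjusted p = 0.0399). Smarcad1, a SWI/SNF-like ATPase that helps keep heterochromatin through replication, fell as well. Ctrl libraries were at 200.5, 197 and 173 TPM at d0, 191, 178 and 189 at d4 and 94.1, 84.9 and 91.7 at d6. KO libraries were at 169.7, 181 and 179 TPM at d0, 191, 196 and 192 at d4 and 109.5, 97.4 and 98.8 at d6, and most of the fall came after d4 in both. No difference between genotypes was called for it.

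Polycomb chromobox proteins read trimethylated H3K27 and bring Polycomb repressive complex 1 (PRC1) to it. Cbx2 (chr11:119022962-119031270) was the most clearly lower member of this group. In Ctrl it rose from 59.9, 55.6 and 60.4 TPM at d0 to 73.8, 86.7 and 84.6 at d4 and 124, 123 and 128 at d6. In KO it was at 38.1, 34.6 and 30.6 TPM at d0, 33.1, 38.9 and 41.5 at d4 and 51.0, 54.9 and 52.9 at d6. Groups lay apart on each day, by -0.76 ± 0.09 (SE, adjusted p = 7.23e-06), -1.09 ± 0.09 (SE, adjusted p = 5.64e-08) and -1.23 ± 0.09 (SE, adjusted p = 6.48e-09). Cbx8 (chr11:119036305-119040969), its paralog, was at low levels, 4.24, 4.17 and 4.59 TPM at d0, 2.41, 2.40 and 3.33 at d4 and 9.0, 5.84 and 8.0 at d6 in Ctrl. The KO libraries were at 3.58, 3.15 and 3.01 TPM at d0, 0.55, 0.693 and 0.428 at d4 and 1.54, 1.64 and 0.795 at d6. Its differences were -1.25 ± 0.17 (SE, adjusted p = 1.89e-05) at d4 and -1.89 ± 0.17 (SE, adjusted p = 1.14e-07) at d6, without overlap, and at d0 the difference was not called (-0.33). Only Ctrl d6 libraries of Cbx8 reached the 5 TPM of the authors' filter, so its d6 difference is not independent of that filter.

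Cbx7 (chr15:79915807-79971119), the chromobox protein of the ESC complex, gave a different course. Ctrl libraries were at 85.2, 74.0 and 86.2 TPM at d0, 129.5, 143 and 149 at d4 and 69.5, 66.9 and 67.7 at d6. KO libraries were at 73.1, 90.5 and 82.6 TPM at d0, 98.2, 104 and 120.3 at d4 and 118, 102 and 77.5 at d6. From d4 to d6 Cbx7 fell by 1.03 on the log2 scale in Ctrl, and in KO the change of -0.13 was not called, so that KO lay above Ctrl at d6 (0.51 ± 0.12 SE, adjusted p = 0.00174). Without KO d6 replicate 1, the highest of the KO libraries, the difference was 0.38 (adjusted p = 0.0111, not called). The log2 ratio of Cbx7 over Cbx2 was -0.84, -0.88 and -0.92 in Ctrl and 1.21, 0.89 and 0.55 in KO at d6, below 0 in all Ctrl and above 0 in all KO libraries. On this ratio the genotypes did not overlap on any day.

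HP1 proteins read methylated H3K9 in heterochromatin. Cbx1 (HP1 beta) was steady in Ctrl, at 244, 237 and 227 TPM at d0, 254, 245 and 262 at d4 and 229.7, 236 and 228 at d6. In KO it was at 231, 231 and 229.9 TPM at d0 and rose to 309.5, 312 and 313 at d4 and 335, 306 and 331 at d6. The groups lay apart at d4 (0.30 ± 0.04 SE, adjusted p = 3.52e-05) and d6 (0.48 ± 0.04 SE, adjusted p = 1.07e-07). Cbx5 (HP1 alpha) was lower in KO at d6, 197 ± 8.70 TPM against 259 ± 18.7 TPM (SD, n = 3), by -0.39 ± 0.06 (SE, adjusted p = 5.58e-05). The mean log2 ratio of Cbx1 over Cbx5 was therefore -0.16 in Ctrl and 0.72 in KO at d6.

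**Figure D3:**
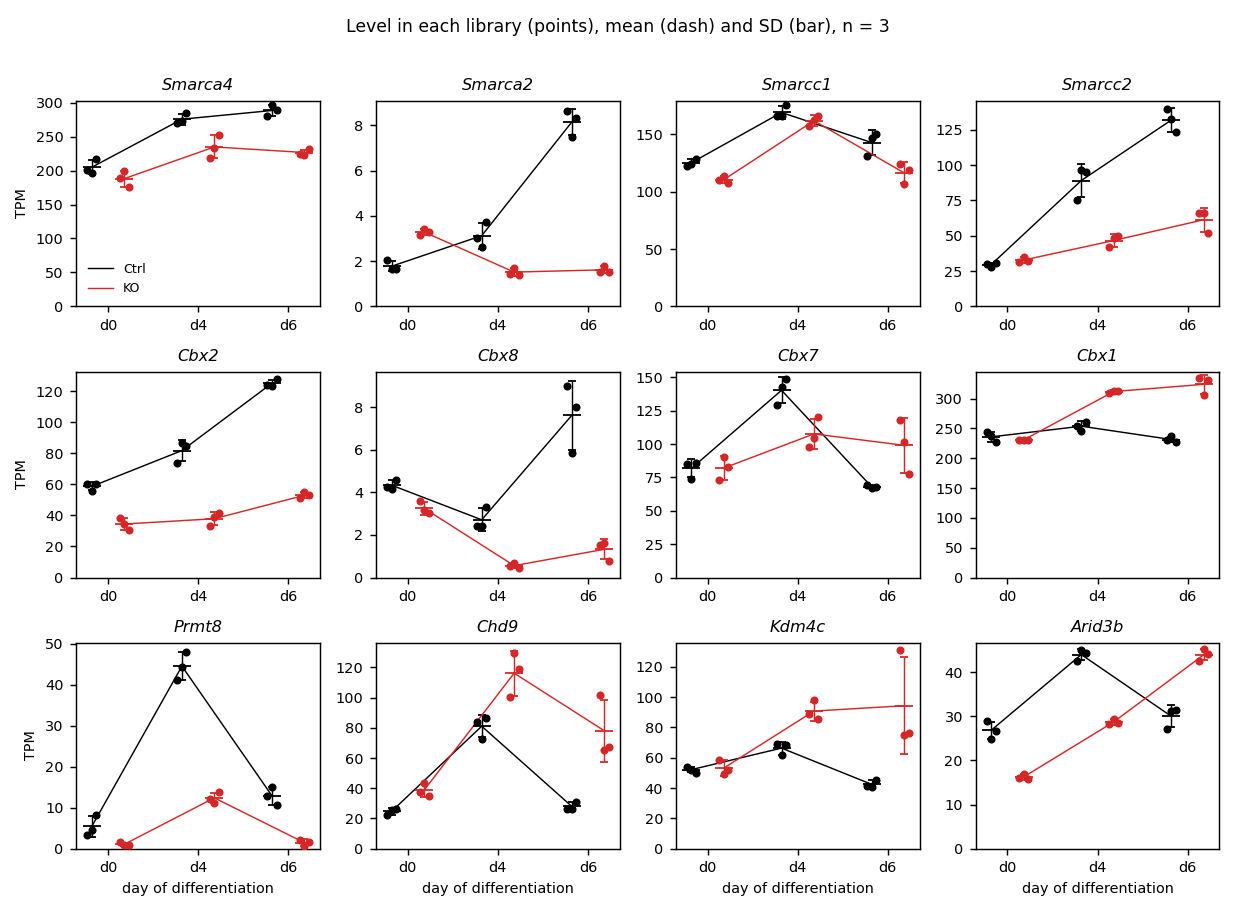
TPM (vertical axis, from 0) of 12 members by day and genotype (horizontal axis), with points for libraries, dashes for means and bars for the SD (n = 3). Smarca2, Smarcc2, Cbx2 and Cbx8 are highest at d6 in Ctrl and lower in KO, while Cbx7, Cbx1, Chd9, Kdm4c and Arid3b are higher in KO at d6.

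Methylated H3K4 is an active mark of promoters and enhancers. Of the 8 genes in the table grouped here with the H3K4 methyltransferases, none was higher in KO on any day. At d0, d4 and d6, 1, 3 and 2 of them were lower, where 16.4%, 32.7% and 34.3% of all genes were. Enzyme activity was not measured. Kmt2e (Mll5), a SET domain protein of the family, was at 18.2, 18.6 and 18.2 TPM at d0, 34.0, 35.6 and 37.2 at d4 and 44.4, 44.6 and 47.6 at d6 in Ctrl. The KO libraries were at 15.9, 18.9 and 14.5 TPM at d0, 16.3, 18.8 and 20.1 at d4 and 27.6, 21.6 and 17.9 at d6, below all Ctrl libraries at d4 (-0.92 ± 0.13 SE, adjusted p = 1.57e-05) and d6 (-1.01 ± 0.13 SE, adjusted p = 3.4e-06). Setd1b was lower at d4 (-0.60) and d6 (-0.77), and Kmt2b at d4 (-0.29). Both d4 calls were lost after rescaling (-0.43 and -0.12), that on Setd1b also under quantile normalization (-0.28), and Kmt2b stood at 0.02 with chromosome medians taken out. Kmt2a, Kmt2c, Kmt2d and Setd1a were called on no day, but without KO d6 replicate 1 Kmt2c was lower at d6 (-0.64, adjusted p = 0.000766). Setd7, which monomethylates H3K4 and other proteins, rose from 7.88, 10.2 and 11.5 TPM at d0 to 42.9, 47.5 and 47.8 at d4 and 52.1, 54.2 and 65.8 at d6 in Ctrl. In KO it rose from 6.44, 7.21 and 6.78 TPM at d0 to 46.4, 57.8 and 51.2 at d4 and 71.3, 70.4 and 67.7 at d6. It was lower in KO at d0 (-0.46 ± 0.12 SE, adjusted p = 0.00518). That call was lost with a pseudocount of 5 in place of 1 (-0.32) and under quantile normalization (-0.36). The same held with chromosome medians taken out (-0.35) and with only the libraries compared (adjusted p = 0.048). At d6 the KO libraries of Setd7 lay above the Ctrl libraries (0.29 ± 0.12 SE, adjusted p = 0.0441), a difference called after rescaling (0.45).

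Of the catalytic subunits of Polycomb repressive complex 2 (PRC2), which methylate H3K27, Ezh2 was lower at d6 and Ezh1 was called on no day. Ezh2, the form of dividing cells, was at 113, 121 and 120.1 TPM in Ctrl and 100.2, 80.1 and 79.6 TPM in KO at d6, without overlap (-0.45 ± 0.07 SE, adjusted p = 7.37e-05), and was not called at d0 or d4 (-0.04 and -0.22). With chromosome medians taken out, the d6 difference of Ezh2 was -0.07 and not called. Ezh1 was at 23.1, 23.1 and 25.3 TPM in Ctrl and 41.7, 30.2 and 24.6 TPM in KO at d6, where KO replicate 1 was the highest library (0.39 ± 0.13 SE, adjusted p = 0.018). After rescaling the Ezh1 difference was 0.54 and called, and without KO d6 replicate 1 it was 0.19 and not called. Ezh2 over Ezh1 was lower at d6 than at d0 in both genotypes, going from 8.83 to 4.95 in Ctrl and from 8.63 to 2.74 in KO, as mean ratios of TPM. Kdm6b (Jmjd3) removes the same H3K27 mark, and its Ctrl level over the days was 83.2 ± 10.5, 67.8 ± 3.95 and 87.9 ± 4.54 TPM (SD, n = 3), beside 77.4 ± 10.8, 46.8 ± 2.26 and 41.7 ± 3.18 TPM in KO. Kdm6b was lower at d4 (-0.53 ± 0.10 SE, adjusted p = 0.000338) and d6 (-1.06 ± 0.10 SE, adjusted p = 1.57e-07), with the same limit of strand, since an antisense gene named for it is also in the table.

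Of the 5 H3K9 demethylases of the Kdm3 and Kdm4 families, 3 were lower at both d4 and d6 and 1 was higher at d6. Of all genes 24.4% were lower on both days and 17.9% higher at d6. Kdm4c (Jmjd2c, chr4:74242497-74405860) was the higher one. Ctrl libraries were at 54.0, 52.2 and 50.2 TPM at d0, 69.3, 61.5 and 68.2 at d4 and 41.1, 40.7 and 45.6 at d6. KO libraries were at 58.8, 49.1 and 51.7 TPM at d0, 88.8, 97.9 and 85.8 at d4 and 132, 75.0 and 76.6 at d6. The groups lay apart at d4 and d6, and only the d6 difference was called (1.09 ± 0.15 SE, adjusted p = 1.19e-05, against 0.45 ± 0.15 SE, adjusted p = 0.019 at d4). KO d6 replicate 1 stood above its fellow libraries, and without it the d6 difference was 0.82 and still called. Kdm4a and Kdm4b were lower at d4 (-0.45 and -0.66) and d6 (-0.53 and -0.79). Kdm3b was higher at d0 (0.36) and lower at d4 (-0.51) and d6 (-0.53). The d4 call on Kdm4b was lost after rescaling (-0.49). The d4 and d6 calls on Kdm3b were lost with chromosome medians taken out (-0.23 and -0.11).

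Kdm3a (Jmjd1a), a demethylase linked to pluripotency, fell with differentiation, from 274, 256 and 238 TPM at d0 to 161, 141 and 157 at d4 and 120.2, 104 and 123 at d6 in Ctrl. In KO it fell from 299.9, 291 and 328 TPM at d0 to 97.5, 114 and 116 at d4 and 178, 91.2 and 87.8 at d6. The d6 KO libraries lay on both sides of Ctrl, replicate 1 above and replicates 2 and 3 below, and no day was called. Without KO d6 replicate 1 Kdm3a was lower at d6 (-0.36, adjusted p = 0.00335). For all members together, 9 were called higher and 41 lower at d6 without that library.

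Among the H3K4 demethylases of the Kdm5 family, Kdm5a was higher at d0 (0.42) and lower at d4 (-0.36) and d6 (-0.58), and Kdm5b was higher at d6 (0.21). The d4 call on Kdm5a was lost after rescaling (-0.19), and the difference turned to 0.07 with chromosome medians taken out. In that setting the d0 and d6 calls on Kdm5a were lost as well (0.24 and -0.20). With only the libraries compared, its d0 call was also lost (adjusted p = 0.0105). The call on Kdm5b was lost without KO d6 replicate 1 (0.14, adjusted p = 0.0364) or KO d6 replicate 3, without Ctrl d6 replicate 1 or 2, and with only the libraries compared. The mean log2 ratio of Kdm5b over Kdm5a was 2.74 at d0 and 1.56 at d6 in Ctrl and 2.21 and 2.38 in KO, without overlap on any day. Kdm1a (LSD1), which acts on H3K4 within the CoREST and NuRD complexes, was lower at d0 alone (-0.23). Kdm2a, an H3K36 demethylase, was lower at d4 (-0.51) and d6 (-0.45). Kdm7a, which acts on H3K9 and H3K27, was lower at d0 (-0.60) and d6 (-0.64). With chromosome medians taken out, the d0 call on Kdm1a (-0.15) and both calls on Kdm2a (-0.23 and -0.20) were lost. The d6 call on Kdm7a was lost there too (-0.27). Further lost calls were that on Kdm2a at d6 under quantile normalization (-0.25) and that on Kdm7a at d0 with only the libraries compared (adjusted p = 0.0149).

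Histone deacetylases showed small differences. Of the 3 class I enzymes in the table, Hdac1 and Hdac8 were called on no day and Hdac3, the enzyme of the NCoR complexes, was lower at d6 (-0.33), a call lost after rescaling (-0.17). Of the 6 class II and IV enzymes, none was higher, and 3, 4 and 2 were lower on the successive days. Of all genes 10.6%, 12.7% and 17.9% were higher and 16.4%, 32.7% and 34.3% lower on these days. Hdac9, a class IIa enzyme, was at 0.756, 1.09 and 0.931 TPM in Ctrl and 0.202, 0.215 and 0.0796 TPM in KO at d0 and 6.54, 5.11 and 5.38 and 3.70, 3.69 and 3.25 TPM at d6. It was lower on all days (-0.72 ± 0.15 SE, adjusted p = 0.00138, -0.64 ± 0.15 SE, adjusted p = 0.00215 and -0.55 ± 0.15 SE, adjusted p = 0.00512). With a pseudocount of 5 in place of 1 its d0 difference was -0.20 and not called. The d4 and d6 calls were lost after rescaling. At d6 only Ctrl libraries of Hdac9 reached the 5 TPM of the authors' filter. Hdac6, a largely cytoplasmic tubulin deacetylase, was lower on all days (-0.64, -0.30 and -0.42), with the d4 and d6 calls lost after rescaling (-0.13 and -0.25). Hdac5 was lower at d0 (-0.34) and d4 (-0.37), and Hdac7 at d4 (-0.63). Both d4 calls were lost after rescaling (-0.21 and -0.47) and under quantile normalization (-0.08 and -0.32).

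The sirtuins are deacylases that use NAD. Sirt1, the nuclear sirtuin of stem cells, was at 34.3, 30.7 and 28.6 TPM in Ctrl and 39.5, 38.3 and 40.5 TPM in KO at d4, without overlap (0.33 ± 0.09 SE, adjusted p = 0.00372). This call was lost without Ctrl d4 replicate 2 or 3 or without KO d4 replicate 1 or 3, with values of 0.27 to 0.33 and adjusted p of up to 0.0242. At d0 Sirt1 was at 34.3 to 39.0 TPM in Ctrl and 30.8 to 36.8 TPM in KO, and at d6 at 21.7 to 23.2 and 24.4 to 28.1 TPM, neither called. Sirt2, mostly cytoplasmic, was lower on all days (-0.39, -0.50 and -0.68), and Sirt6, a chromatin-bound H3 deacetylase, at d4 (-0.77) and d6 (-0.45). The d0 and d4 calls on Sirt2 were lost under quantile normalization (-0.28 and -0.21) and with chromosome medians taken out (-0.31 and -0.19). With only the libraries compared, its d0 call was lost too (adjusted p = 0.0457). The d6 call on Sirt6 was lost after rescaling (-0.29), without KO d6 replicate 3 (-0.28, adjusted p = 0.0341) and without any 1 Ctrl d6 library. Sirt3, a mitochondrial enzyme, was higher at d6 (0.49), although its groups overlapped and the call was lost without Ctrl d6 replicate 1 or 2 or KO d6 replicate 1 or 3 (adjusted p of 0.0112 to 0.0142).

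Protein arginine methyltransferases held both the largest decrease of all members and several increases. Prmt8 (chr6:127689011-127769472), a membrane-bound enzyme of the brain, was at 3.42, 4.59 and 8.25 TPM at d0, 41.2, 44.4 and 47.9 at d4 and 12.9, 15.1 and 10.6 at d6 in Ctrl. In KO it was at 1.53, 0.786 and 0.775 TPM at d0, 12.1, 11.2 and 13.7 at d4 and 2.2, 0.526 and 1.54 at d6. All KO libraries lay below all Ctrl libraries on each day, by -1.61 ± 0.27 (SE, adjusted p = 0.000188), -1.77 ± 0.27 (SE, adjusted p = 4.31e-05) and -2.57 ± 0.27 (SE, adjusted p = 5e-07). Both genotypes passed through a maximum at d4, with rises of 2.89 in Ctrl and 2.73 in KO on the log2 scale. Prmt2 rose in Ctrl from 2.45, 2.49 and 3.48 TPM at d0 to 16.8, 16.2 and 17.1 at d4 and 23.2, 22.6 and 23.4 at d6. The KO libraries were at 1.68, 1.98 and 2.25 TPM at d0, 6.80, 7.14 and 6.39 at d4 and 13.3, 17.6 and 17.1 at d6, lower at d4 (-1.19 ± 0.12 SE, adjusted p = 1.09e-06) and less so at d6 (-0.51 ± 0.12 SE, adjusted p = 0.00198), without overlap. The d6 call on Prmt2 was lost without KO d6 replicate 1 (-0.39, adjusted p = 0.0122) and after rescaling (-0.36).

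The higher arginine methyltransferases changed by less. Prmt5, which makes symmetric dimethylarginine on histones and splicing proteins, was at 150.5, 149.6 and 148 TPM in Ctrl and 188, 199 and 203 TPM in KO at d4, without overlap (0.39 ± 0.06 SE, adjusted p = 5.07e-05). At d0 it was at 206 to 213 and 217 to 220.5 TPM and at d6 at 127 to 143 and 129 to 156 TPM in Ctrl and KO, with neither day called. Prmt7, which makes monomethylarginine, was at 56.1, 63.2 and 59.9 TPM in Ctrl and 90.9, 84.0 and 86.0 TPM in KO at d0, and at 93.9, 81.0 and 76.3 and 119.7, 114 and 111 TPM at d4. At d6 its libraries came closer, 59.0, 64.0 and 55.1 TPM in Ctrl and 68.7, 73.2 and 84.4 TPM in KO. Its differences were 0.54 ± 0.09 (SE, adjusted p = 0.000134), 0.46 ± 0.09 (SE, adjusted p = 0.000305) and 0.34 ± 0.09 (SE, adjusted p = 0.00259), the last of them lost without replicate 3 of Ctrl d6 (0.29, adjusted p = 0.0162) or of KO d6 (0.26, adjusted p = 0.0179). Prmt3, a largely cytosolic enzyme that methylates a ribosomal protein, was at 55.7, 55.7 and 52.7 TPM in Ctrl and 72.3, 69.4 and 73.9 TPM in KO at d4 (0.39 ± 0.05 SE, adjusted p = 7.54e-06) and at 45.8 to 47.6 and 54.6 to 56.7 TPM at d6 (0.26 ± 0.05 SE, adjusted p = 0.000268). Prmt1, the main asymmetric arginine methyltransferase, was lower at d0 (-0.23, a call lost after rescaling), and Prmt10, which RefSeq now names Prmt9, was higher (0.52).

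The ARID proteins outside BAF bind DNA through an AT-rich interaction domain. Arid3b (chr9:57790353-57836793) was the single member called lower at d0 and higher at d6. It was at 28.9, 25.0 and 26.7 TPM at d0, 42.7, 45 and 44.5 at d4 and 27.2, 31.4 and 31.6 at d6 in Ctrl, and at 15.9, 17.0 and 15.9 TPM at d0, 28.3, 29.4 and 28.6 at d4 and 42.7, 45.2 and 44.1 at d6 in KO. KO libraries were below Ctrl libraries at d0 (-0.69 ± 0.07 SE, adjusted p = 2.32e-06) and d4 (-0.60 ± 0.07 SE, adjusted p = 3.88e-06) and above them at d6 (0.54 ± 0.07 SE, adjusted p = 6.59e-06), each time without overlap. Its relative Arid3a, known from B cells and early embryos, was at 16.5, 19.4 and 19.0 TPM in Ctrl and 7.12, 8.43 and 8.76 TPM in KO at d4 and at 32.4, 32.7 and 34.1 and 12.8, 16.7 and 18.1 TPM at d6. Both days were without overlap (-1.08 ± 0.12 SE, adjusted p = 2.24e-06 and -1.03 ± 0.12 SE, adjusted p = 2.11e-06). At d0 Arid3a was at 9.68 to 11 and 7.24 to 9.04 TPM and not called (-0.30).

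Arid3c, the remaining Arid3 gene, went from 0.622, 0.846 and 0.589 TPM at d0 to 4.02, 5.56 and 4.11 at d4 and 14.8, 13.1 and 11.8 at d6 in Ctrl. In KO it went from 0.554, 0.354 and 0.523 TPM at d0 to 2.26, 3.69 and 2.73 at d4 and 3.28, 6.07 and 5.13 at d6, below all Ctrl libraries at d6 (-1.31 ± 0.19 SE, adjusted p = 1.48e-05). Arid5b, part of an H3K9 demethylase complex with Phf2, was the member that fell most in Ctrl, from 157, 147 and 149 TPM at d0 to 76.3, 75.7 and 77.0 at d4 and 19.3, 24.8 and 25.4 at d6. In KO it fell from 128, 150.5 and 118 TPM at d0 to 59.1, 56.0 and 65.8 at d4 and 19.0, 16.3 and 18.0 at d6. Its differences between genotypes at d4 (-0.34) and d6 (-0.36) were small beside this fall and were not called after rescaling. Arid4a and Arid4b, subunits of the Sin3 deacetylase complex, were called on no day, but without KO d6 replicate 1 Arid4b was lower at d6 (-0.57, adjusted p = 0.000273).

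During differentiation itself, more chromatin genes rose than fell between d0 and d4 in Ctrl as deposited. From d0 to d4 in Ctrl, 46 members (56.8%) rose and 12 (14.8%) fell, against 45.1% and 22.3% of all genes, with a median of 0.43 on the log2 scale against 0.26. This split depended on the scaling: after rescaling 28 rose and 25 fell. From d4 to d6 in Ctrl, 16 (19.8%) rose and 28 (34.6%) fell, against 22.6% and 21.5%, with a median of -0.15 against 0.04, and the counts were again 16 and 28 after rescaling. In KO, 35 (43.2%) rose and 16 (19.8%) fell from d0 to d4, against 35.8% and 20.9% of all genes, with 28 and 24 after rescaling. From d4 to d6 in KO, 13 (16.0%) rose and 24 (29.6%) fell, against 21.5% and 19.9%. The steps before and after d4 share the d4 libraries, so they are given side by side only.

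**Figure D4:**
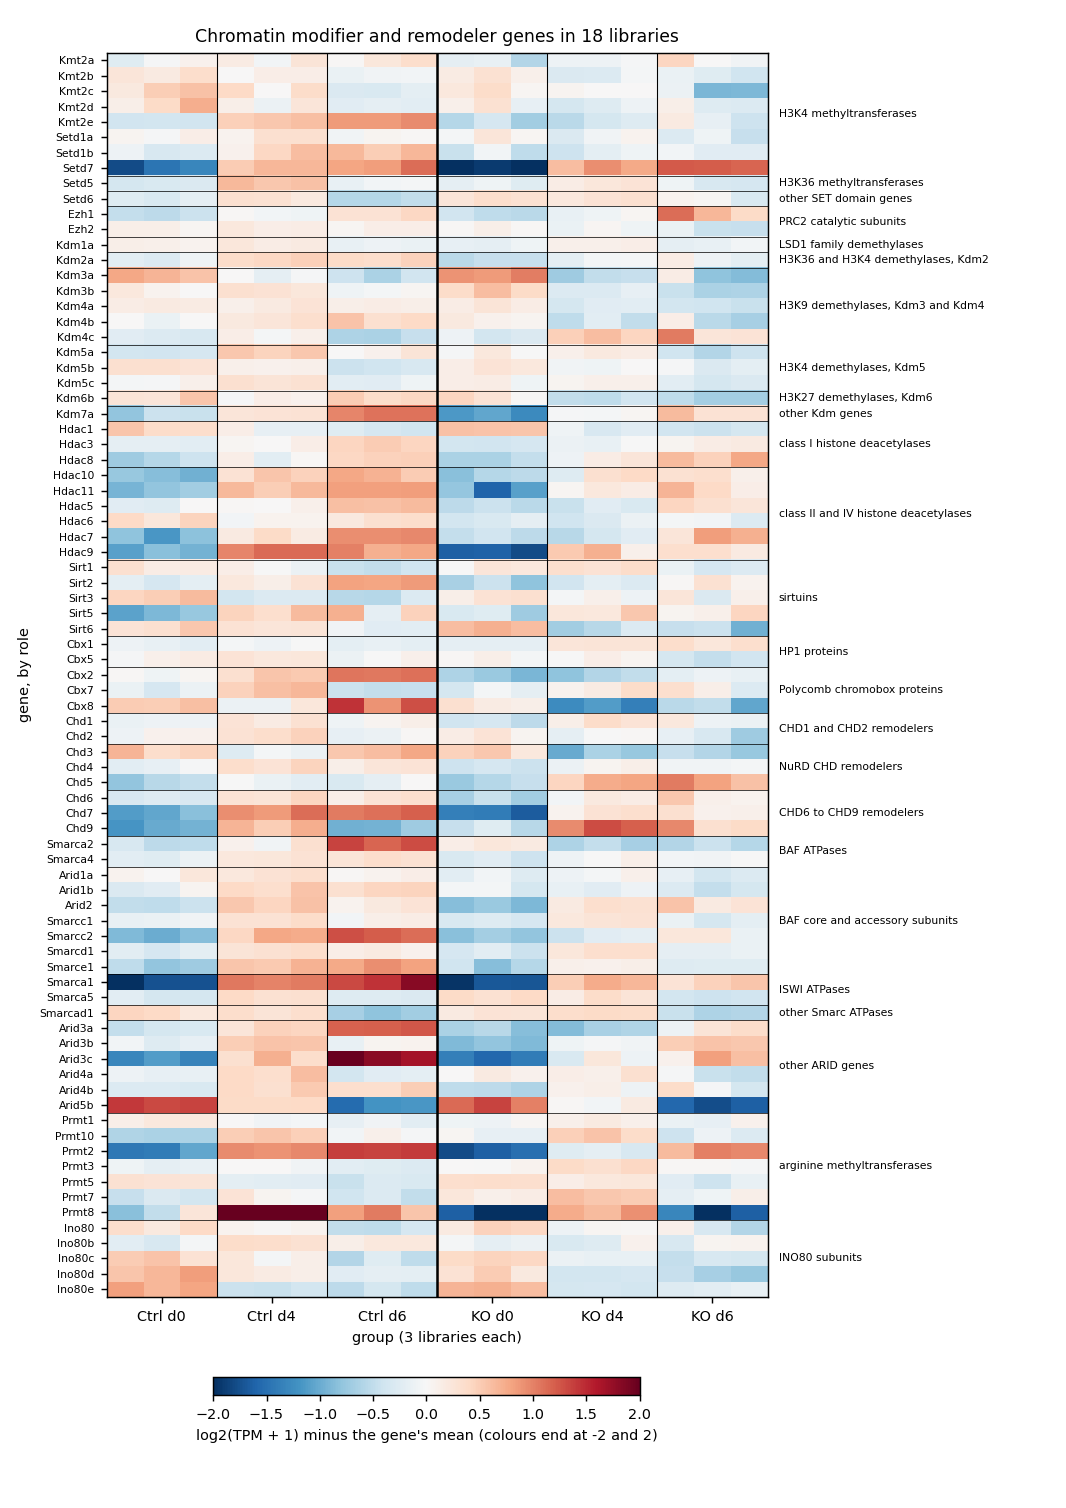
Level of the 81 members (rows, by role) in the 18 libraries (columns, by genotype and day), as log2(TPM + 1) minus the gene's mean over all libraries, with colours ending at -2 and 2. Smarca1, Arid3c, Prmt2 and Setd7 are lowest at d0 in both genotypes and Arid5b highest there, and Smarca2, Smarcc2, Cbx2 and Cbx8 are highest in the Ctrl d6 columns.

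The 4 members with the largest changes in each direction in Ctrl over the course moved in the same direction in KO. From d0 to d6, Smarca1 rose by 3.36 on the log2 scale in Ctrl and 2.22 in KO. Arid3c rose by 3.07 and 1.95, Prmt2 by 2.67 and 2.51 and Setd7 by 2.43 and 3.18. The changes of Arid5b were -2.66 and -2.82, of Ino80e -1.21 and -0.87, of Kdm3a -1.14 and -1.43 and of Smarcad1 -1.07 and -0.79. Other members differed in direction or reached the threshold in a single genotype. Smarca2 and Cbx8 rose in Ctrl (1.72 and 0.67) and fell in KO (-0.71 and -0.89). Arid3b changed by 0.15 in Ctrl, not called, and rose by 1.38 in KO. Kdm6b and Chd3 were at 0.09 and 0.15 in Ctrl, not called, and fell in KO (-0.87 and -1.01). The test of the difference in change since d0 between genotypes, over both later days, called 34 members (42.0%), against 48.7% of all genes, and Smarca2, Cbx8, Arid3b, Kdm6b and Chd3 were among them.

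Of the 8 members higher at d0, 5 lie on chromosome 8. All 5 members with a position there (GENCODE M21 on GRCm38), Chd9, Smarca5, Prmt10, Prmt7 and Setd6, were called higher at d0, with log2 fold changes of 0.52 to 0.67 and a median of 0.55. The 663 other genes of chromosome 8 had a median of 0.33, when all genes together had -0.07. The 438 other genes of chromosome 12 had a median of 0.36, but of its 2 members Hdac9 was lower and Arid4a was not called (0.23). When each library's chromosome medians were taken out, the d0 difference of Smarca5 on chromosome 8 was 0.30, still called. Those of Chd9, Prmt7, Prmt10 and Setd6 were 0.26, 0.17, 0.16 and 0.18, none called. Over all members 5 were then higher and 9 lower at d0, and the shares of all genes in that setting are not given here. By d4 the median of the other chromosome 8 genes was -0.20 and by d6 it was -0.16, while 2 and then 3 of the 5 members there were higher. Whether the d0 difference belongs to the genotype or to the lines used cannot be told apart here. The other d0 increases were Smarca2 on chromosome 19 (378 other genes at a median of -0.12), Kdm5a on chromosome 6 (550 at 0.08) and Kdm3b on chromosome 18 (266 at -0.06). The d0 call on Kdm5a, too, was lost with chromosome medians taken out (0.24).

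**Figure D5:**
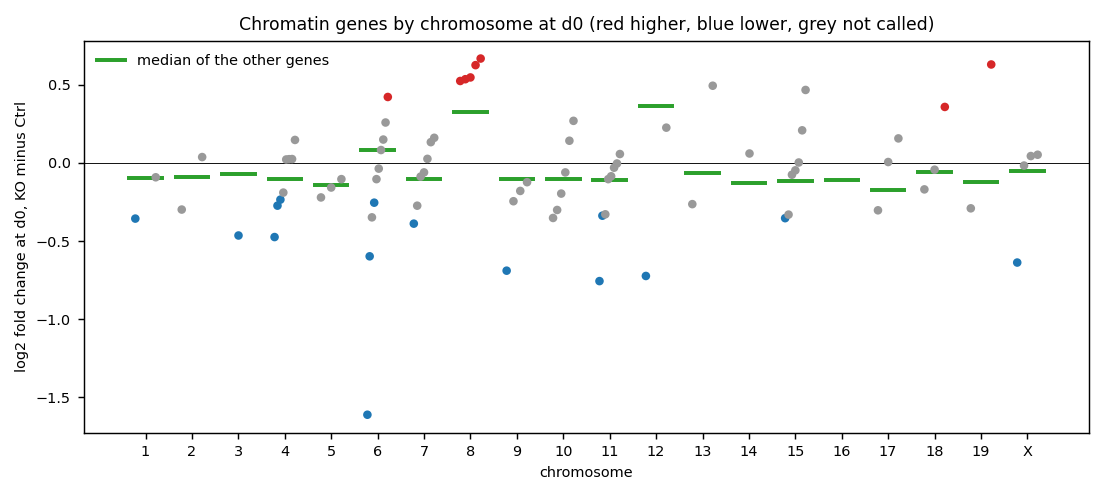
Log2 fold change of the members at d0, KO minus Ctrl (vertical axis), by chromosome (horizontal axis), with a green line at the median of the other genes of that chromosome. All 5 members of chromosome 8 lie at 0.52 or above, and the line there is at 0.33.

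Chromatin genes outside the name rule, called partners here, were counted for comparison, and 79 of 100 listed had a row. They are subunits of the same complexes and other histone-modifying enzymes and readers. This list was also chosen with earlier results of these data known. At d0, 6 were higher and 15 lower, at d4 9 and 36, and at d6 12 and 36, with medians of -0.06, -0.23 and -0.21. Of all genes 16.4%, 32.7% and 34.3% were lower on these days. After rescaling, 9 partners were higher and 12 lower at d0, 10 and 21 at d4, and 20 and 26 at d6. Of 11 BAF partners 8 were lower and none higher at d6, of 12 PRC1 partners 7 were lower and 3 higher, and of 12 other histone methyltransferases 7 were lower and none higher. After rescaling these counts were 4 lower and 2 higher, 6 and 4, and 7 and 1. The PRC1 subunits that assemble around the chromobox proteins gave the largest values of these partners in both directions. Phc1 was at 74.6, 70.1 and 81.0 TPM in Ctrl and 331, 276 and 257 TPM in KO at d6 (1.92 ± 0.09 SE, adjusted p = 3.84e-11), and Phc2 at 57.4, 59.0 and 55.9 and 13, 16.3 and 15.8 TPM (-1.87 ± 0.11 SE, adjusted p = 3.84e-10). Bmi1 (Pcgf4) was at 18.0, 20.6 and 18.3 TPM in Ctrl and 5.60, 5.05 and 3.37 TPM in KO (-1.83 ± 0.14 SE, adjusted p = 9.36e-09). These groups did not overlap, and Phc1 was the high one in KO. Whsc1 (Nsd2), an H3K36 methyltransferase, was at 45.6, 50.3 and 50.6 TPM in Ctrl and 15.7, 15.8 and 16.4 TPM in KO (-1.55 ± 0.08 SE, adjusted p = 6.14e-11). Jmjd1c, a relative of Kdm3a, was at 25.4, 25.7 and 28.9 and 68.0, 45.7 and 44.3 TPM (0.93 ± 0.14 SE, adjusted p = 2.52e-05). Mta3, a NuRD subunit, was lower at d0 (-1.36) and higher at d6, 50.8, 54.6 and 55.0 TPM in Ctrl and 99.5, 99.2 and 96.2 TPM in KO (0.87 ± 0.08 SE, adjusted p = 6.12e-08).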

How the data were processed

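Total RNA of Ctrl and Zeb2 KO cells was sequenced as 36-base single reads. Per the labels and the methods, the authors mapped reads to GRCm38 with TopHat2 2.0.13, counted them per annotated gene with featureCounts 1.4.6 and deposited TPM (read counts divided by gene length and scaled to a common total per library over all annotated genes) without pooling replicates. The methods compare genotypes with DESeq2 on raw counts, which the deposited table does not hold, so log2(TPM + 1) was tested here with limma 3.58.1 in R 4.3.3 (all 18 libraries, 6 group means, eBayes with a trend, Benjamini-Hochberg adjustment over 10965 genes, called at adjusted p under 0.01). A fold change on this scale understates the change of low genes. A limma moderated F test compared the changes since d0. The table's columns of gene variance and standard deviation over all libraries were not used.

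The members follow a rule on names alone, but that rule and the gene lists were chosen with earlier results of these data known. Members given library by library are the 6 with the largest log2 fold change in each direction at d4 and at d6 and the 3 at d0, among called genes whose groups did not overlap, and the 4 with the largest change in each direction from d0 to d6 in Ctrl; of partner genes, the 3 largest at d6 in each direction. Smarcc2 on all days and Smarca4, Ezh1 and Ezh2 at d6 were added to these after their values were seen. Other members are given by values or counts. Each TPM value gave back a whole number of reads once 1 read had been added to it, for all 10965 genes (within 1e-06), so depth is known: a median of 12131165 reads per library. Alternatives were a pseudocount of 0.1 or 5, a mean TPM of at least 10, median-ratio rescaling, quantile normalization, only the libraries compared, no trend, a replicate block, voom on the recovered reads, chromosome medians taken out, and leaving out each of the 18 libraries. The labels call the replicates biological, and per the methods each stage was run as 3 separate experiments. Short reads of close paralogs and of overlapping or antisense genes may have been split between them. The promoters of Cbx2 and Chd3 are not shown. The test was checked on simulated data.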

Additional observations from a re-analysis of the deposited data

Results flagged for a closer look

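The difference between KO and Ctrl changed with the day for 34 members, by limma's moderated F test over both later days against d0 (adjusted p under 0.01 for each). What follows is the log2 fold change at d6 less that at d0. Of the BAF genes, Smarca2 (-2.43), Smarcc2 (-1.24), Smarce1 (-1.14) and Arid1b (-0.78) shifted downwards and Arid2 (0.51) upwards. The ISWI ATPases Smarca1 (-1.13) and Smarca5 (-0.78) shifted downwards. Among CHD remodelers, Chd3 was at -1.16, Chd9 at 0.80 and Chd5 at 0.95. The chromobox genes gave -1.56 for Cbx8, 0.51 for Cbx7 and 0.51 for Cbx1. Demethylases with a downward shift were Kdm5a (-1.0), Kdm6b (-0.96), Kdm4b (-0.94), Kdm3b (-0.89) and Kdm4a (-0.56), and Kdm5b (0.30) and Kdm4c (1.06) shifted upwards. Genes of the Kmt and Setd families gave -0.86 for Kmt2e, -0.32 for Setd5, -0.0745 for Setd6 and 0.75 for Setd7. Arginine methyltransferases gave -0.80 for Prmt10, -0.16 for Prmt2, 0.0191 for Prmt5 and 0.31 for Prmt1, where the values near 0 belong to members whose d4 difference stood apart from that at d0. Deacetylases gave -0.81 for Hdac7, -0.72 for Sirt6 and 0.76 for Sirt3. The Arid3 genes gave -1.12 for Arid3c, -0.73 for Arid3a and 1.23 for Arid3b.

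Between d4 and d6 the difference moved for 7 members by limma's test of that contrast. The share of all genes called on it is not given here, so the 7 are not set against one. The median of this change was 0.011 over the members and 0.006 over all genes. The value at d6 less that at d4 was -1.10 for Smarca2 and -0.60 for Smarce1. It was 0.35 for Kdm5b, 0.47 for Setd6, 0.90 for Cbx7, 0.91 for Chd9 and 1.14 for Arid3b. The F test called a smaller share of members than of all genes, as given above.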

How the results depend on the processing

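Of 114 called differences between genotypes, 47 kept direction and call in all other fits, and over the 10 alternatives that kept all libraries 955 of 1128 values kept both, 166 lost the call and 7 turned. The causes were not tested. Shares of all genes are given above for the main fit and for rescaling only, so counts under the other settings describe the members alone. After median-ratio rescaling, 12 members were higher and 19 lower at d4, 20 were higher at d6, 28 rose and 25 fell from d0 to d4 in Ctrl, and the members' median was -0.13 at d4 and -0.13 at d6. Quantile normalization gave 9 lower at d0, 19 lower at d4 and medians of -0.14 at d4 and -0.0806 at d6. Voom on the recovered reads gave 11 higher at d4 and medians of -0.19 and -0.20 at d4 and d6. With only the libraries compared, 8 were lower at d0, 6 higher at d6, and 7 rose and 15 fell from d4 to d6 in KO. With chromosome medians taken out, 5 were higher and 9 lower at d0, 12 higher and 17 lower at d4, 22 higher and 19 lower at d6, 30 rose and 24 fell from d0 to d4 in Ctrl, and the medians were -0.0101, -0.0399 and -0.0463. That setting turned Kmt2b (0.0181), Kdm5a (0.0690), Smarca4 (0.0229), Smarcc1 (0.19), Setd5 (0.0530) and Chd4 (0.0933) upwards at d4 and Hdac3 (0.10), Setd5 (0.21) and Chd4 (0.10) at d6, with Smarcc1 at d4 and Setd5 at d6 called (adjusted p = 0.00953 and 0.00579). Leaving out 1 library at a time gave 7 to 9 higher and 7 to 18 lower at d0 (7 without Ctrl d0 replicate 3, 8 without KO d0 replicate 1 or 3), 5 to 8 and 26 to 40 at d4, and 9 to 12 and 32 to 41 at d6. The medians ran from -0.12 to -0.04 at d0, -0.36 to -0.25 at d4 (-0.36 without KO d4 replicate 3) and -0.32 to -0.26 at d6. From d0 to d4, 43 to 49 rose and 9 to 13 fell in Ctrl and 33 to 38 and 15 to 17 in KO. From d4 to d6 the ranges were 12 to 18 and 20 to 30 in Ctrl and 7 to 14 and 18 to 28 in KO, with 7 rising without KO d4 replicate 1. The difference in course was called for 31 to 41 members. Without any 1 library, 82 of the 114 calls held, 14 of 24 at d0, 30 of 42 at d4 and 38 of 48 at d6. Replicate numbers were not taken as pairs: of 9 correlations between same-numbered KO and Ctrl libraries of a day, 6 were over 0.1 and those of replicate 3 ran from -0.08 to 0.05, and of all 45 between groups 29 were over 0.1. In 70 of 90 cases a library correlated best with its own number, among 3, in another group. Whether a number marks a shared experiment is not given in the labels. A replicate block kept 232 of 243 differences between genotypes on their side of the threshold and gained 1 call. It lost 10, on Arid1a, Hdac5, Ino80d, Prmt1 and Sirt2 at d0, Arid5b, Chd9, Hdac6 and Kmt2b at d4 and Kdm5b at d6 (adjusted p from 0.0105 to 0.0145). Depth limits the members under 1 TPM, such as Smarca1 and Hdac9 at d0.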
